A study of Mus musculus with 13 samples.

Results

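The interferon regulatory factor (IRF) genes described here are Irf1, Irf2, Irf3, Irf4, Irf5, Irf7, Irf8 and Irf9. They were chosen by symbol and make up 8 of the 20270 genes in lung RNA-seq tables from mice given bleomycin. All 8 passed the filter on low counts and were among the 15315 genes tested. The study asked how loss of the cannabinoid receptor 1 (CB1R), encoded by Cnr1, alters the response of the lung to bleomycin, a drug that injures the alveoli and leads to fibrosis. The 4 control mice (Control) were wild-type C57BL/6J males, 13 weeks old, that received vehicle. The 5 WT bleomycin mice were of the same strain, sex and age and received bleomycin once through the oropharynx at 1 U per kg, with lungs taken at day 14. The 4 CB1R KO bleomycin mice carried a Cnr1-/- deletion in every cell on the C57BL/6J background and received the same dose for the same time. The sources used here do not state their age, and the study's methods do not state their sex. No group combined the deletion with vehicle, so an effect of the genotype alone cannot be told apart from an effect on the bleomycin response. Each library came from the lower right lobe of 1 mouse, and replicates are named by the numbers in their labels.

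Of the 13 libraries, 12 held 14615904 to 16662580 estimated counts and CB1R KO replicate 11 held 53463884. Log2 fold changes had median standard errors of 0.11 to 0.12 in the 3 comparisons. The 6 type II cell markers, surfactant protein genes among them, summed to between 11602 and 22100 CPM (counts scaled to library size, per 1000000) in all libraries. Cnr1 was counted in the libraries labelled CB1R KO at 4.04 ± 1.37 CPM (SD, n = 4), beside 5.77 ± 1.37 CPM in WT bleomycin (n = 5) and 2.67 ± 1.09 CPM in control libraries (n = 4). Counts per gene do not show which part of Cnr1 was read, so they do not check the genotype, and CB1R KO below means libraries so labelled.

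IRFs are transcription factors that share a DNA-binding domain and recognise repeats of the GAAA core found in the interferon-stimulated response element. Sensors of nucleic acids and of bacterial products activate IRF3, IRF5 and IRF7 through adaptors and kinases, and these factors then switch on interferons and inflammatory cytokines. Interferon receptors signal through JAK kinases to STAT factors, which join IRF9 in the complex ISGF3, while interferon gamma induces Irf1 at gamma-activated sites. IRF2 binds many of the same sites as IRF1 and can oppose it. IRF4 and IRF8 bind with the ETS factors PU.1 and SPIB at composite elements and are known for their part in the development of B cells, plasma cells, dendritic cells and macrophages.

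The proximal promoters are shown for the members whose control and WT bleomycin libraries did not overlap (Irf1, Irf2, Irf5 and Irf7) and for Irf8, which held a motif, because IRF and STAT motifs are the route by which these genes are known to act on each other. RefSeq windows (build GRCm38.p6) were found for all 8 members, with 11 start sites in all. Each window searched held 300 bases, from 250 before to 50 after a start site, and its 250 bases before the start site are printed 5′ to 3′ for the first listed start of each gene shown. Capitals mark matches, on either strand, to GAAANNGAAA (interferon-stimulated response element), TTCNNNGAA (gamma-activated site) or GGAANNGAAA (ETS-IRF composite element).

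Irf1 (chr11:53769764-53770013, plus strand): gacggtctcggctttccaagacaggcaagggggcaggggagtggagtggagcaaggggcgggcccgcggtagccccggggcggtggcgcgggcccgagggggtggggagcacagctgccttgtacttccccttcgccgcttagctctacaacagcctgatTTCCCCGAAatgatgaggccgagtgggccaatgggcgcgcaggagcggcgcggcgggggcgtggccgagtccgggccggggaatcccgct
Irf2 (chr8:46739495-46739744, plus strand): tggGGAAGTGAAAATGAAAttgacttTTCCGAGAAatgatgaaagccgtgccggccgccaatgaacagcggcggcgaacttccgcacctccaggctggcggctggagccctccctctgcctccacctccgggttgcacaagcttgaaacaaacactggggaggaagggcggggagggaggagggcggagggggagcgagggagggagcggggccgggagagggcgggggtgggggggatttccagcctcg
Irf8 (chr8:120736108-120736357, plus strand): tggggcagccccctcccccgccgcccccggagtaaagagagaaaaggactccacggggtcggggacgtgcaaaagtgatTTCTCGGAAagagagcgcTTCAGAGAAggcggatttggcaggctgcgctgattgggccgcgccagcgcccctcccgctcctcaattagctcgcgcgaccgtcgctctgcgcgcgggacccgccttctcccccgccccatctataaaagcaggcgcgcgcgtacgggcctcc
Irf5 (chr6:29526375-29526624, plus strand): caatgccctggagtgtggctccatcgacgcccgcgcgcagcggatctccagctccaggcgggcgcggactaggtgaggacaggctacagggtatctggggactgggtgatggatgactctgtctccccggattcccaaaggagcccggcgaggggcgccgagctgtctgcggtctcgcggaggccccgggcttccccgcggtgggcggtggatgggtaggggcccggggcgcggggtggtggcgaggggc
Irf7 (chr7:141266425-141266674, minus strand): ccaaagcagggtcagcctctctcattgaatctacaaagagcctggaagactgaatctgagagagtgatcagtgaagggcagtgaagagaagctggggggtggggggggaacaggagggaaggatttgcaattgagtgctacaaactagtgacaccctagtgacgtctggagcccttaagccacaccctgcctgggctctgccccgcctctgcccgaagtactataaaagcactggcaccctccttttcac

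Irf2 held all 3 motifs within its most distant stretch: counted from the start site, the composite element began at -247, the response element at -241, overlapping the composite element, and a gamma-activated site at -224. Irf8 held gamma-activated sites that began at -171 and -153, and Irf1 held one that began at -90. Irf5 and Irf7 held none of these motifs in the windows searched, nor did the windows of Irf3, Irf4 and Irf9. Of all 32851 promoter windows searched in the same way, 3.44% held the response element, 8.3% the gamma-activated site and 2.72% the composite element. A match describes the letters only and is not evidence of binding.

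In control lungs the level per transcript length, in TPM (transcripts per 1000000), was highest for Irf1 at 106 ± 4.52 TPM (SD, n = 4) and lowest for Irf4 at 4.14 ± 1.24 TPM. Irf2 followed Irf1 at 65.9 ± 5.95 TPM, and the ranges of these 2 genes did not overlap each other or that of the next gene, Irf8, at 44.0 ± 9.30 TPM. Irf8, Irf3 (40.3 ± 4.70 TPM), Irf9 (34.4 ± 1.69 TPM) and Irf5 (25.7 ± 7.35 TPM) had ranges that overlapped from one neighbour to the next. Irf7, at 12.6 ± 1.98 TPM, lay below Irf5 and above Irf4 in all 4 control libraries.

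After bleomycin the middle of this order changed while its ends did not. In WT bleomycin lungs Irf5 came next after Irf8 at 41.3 ± 3.91 TPM (n = 5), next to Irf9 at 40.01 ± 5.85 TPM and Irf3 at 34.2 ± 2.22 TPM, and Irf7 reached 28.8 ± 3.95 TPM. The ranges of all neighbours from Irf1 (82.6 ± 12.4 TPM), Irf2 (55.0 ± 9.60 TPM) and Irf8 (52.2 ± 5.18 TPM) down to Irf7 overlapped, and only Irf4, at 4.62 ± 1.02 TPM, stood apart. With CB1R KO the order was Irf1 (98.3 ± 9.69 TPM, n = 4), Irf8 (59.7 ± 9.04 TPM), Irf2 (58.7 ± 7.02 TPM), Irf9 (41.5 ± 5.12 TPM), Irf3 (39.6 ± 2.26 TPM), Irf5 (39.1 ± 2.86 TPM), Irf7 (23.7 ± 5.74 TPM) and Irf4 (5.11 ± 1.03 TPM). There Irf8 and Irf2 overlapped in range, as did Irf9, Irf3 and Irf5, and the other neighbours did not. The 8 genes summed to 333 ± 22.3 TPM in control, 339 ± 37.3 TPM in WT bleomycin and 366 ± 27.8 TPM in CB1R KO bleomycin lungs, with overlapping ranges.

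**Figure D1:**
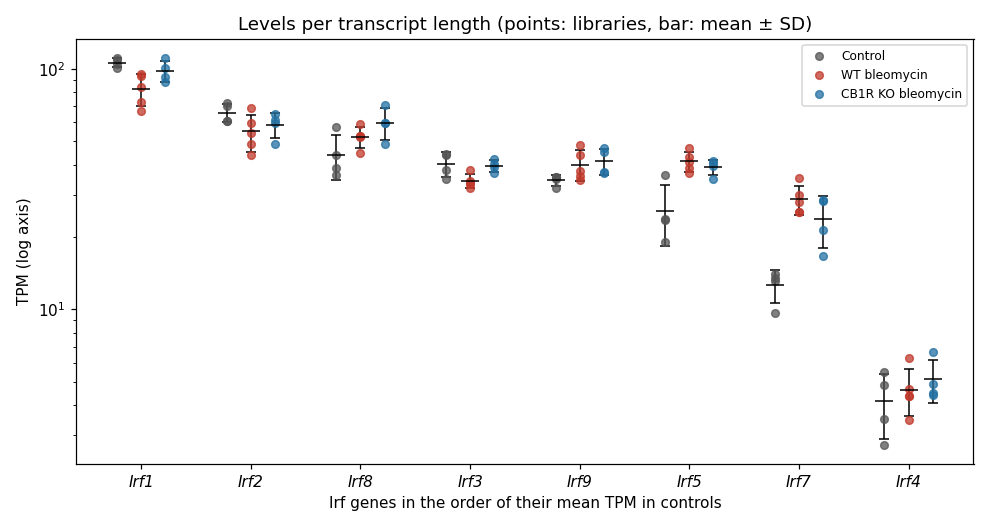
TPM of the 8 Irf genes on a log axis, ordered by their mean in controls, with points for single libraries and bars for the mean ± SD in Control (n = 4), WT bleomycin (n = 5) and CB1R KO bleomycin (n = 4). Irf4 lies between 2.74 and 6.63 TPM in all libraries, below all other members, while the Irf7 points of both bleomycin groups lie above those of the controls.

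The shares of single members in this sum differed between the groups. Irf7 made up 3.78% ± 0.634 of the summed TPM in control, 8.497% ± 0.681 in WT bleomycin and 6.43% ± 1.11 in CB1R KO bleomycin lungs (SD, n = 4, 5 and 4), and both bleomycin ranges lay above the control range. Irf1 made up 32.0% ± 1.07, 24.3% ± 1.24 and 26.9% ± 1.15 in the same groups. The TPM ratio of Irf7 to Irf3, the inducible and the constitutive factor that drive type I interferon genes, was 0.278 to 0.371 in control, 0.672 to 1.06 in WT bleomycin and 0.415 to 0.770 in CB1R KO bleomycin libraries. Thus Irf7 stayed below Irf3 in every library but 1, WT bleomycin replicate 2. These shares restate the levels above and were not tested.

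Bleomycin against vehicle in wild-type lungs was compared first. Of the 8 members, 5 passed an adjusted p of 0.05 (edgeR quasi-likelihood test, Benjamini-Hochberg adjustment over all genes tested), where 48.9% of all genes did. Irf5 and Irf7 rose, against 25% of all genes, and Irf1, Irf2 and Irf3 fell, against 23.9% of all genes. The median log2 fold change was 0.10 over the members and -0.01 over all genes. The groups did not overlap in CPM for 4 members (Irf1, Irf2, Irf5 and Irf7), where 40.3% of all genes did not. With 5 of 8 members called against a background of nearly every other gene, the count by itself says nothing particular of the family.

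**Figure D2:**
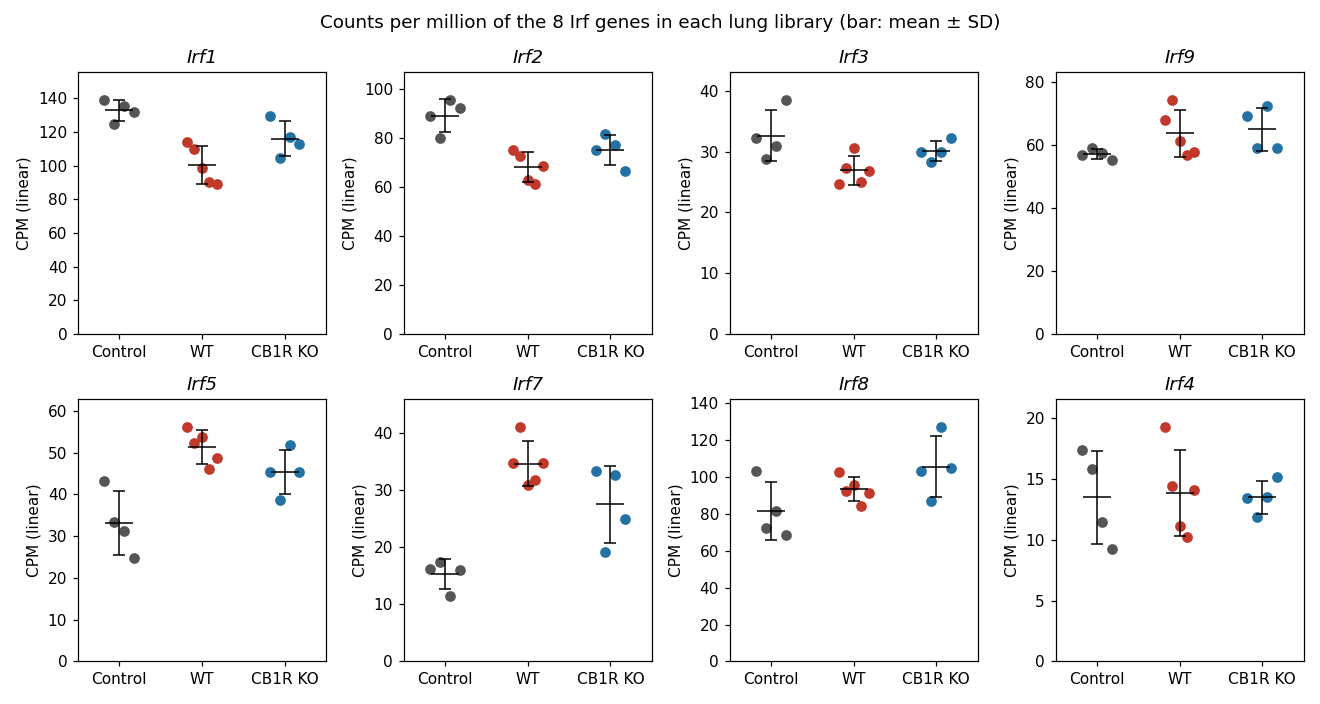
CPM of each Irf gene (linear axes from 0) in every library of the 3 groups, with bars for the mean ± SD. The 4 control and 5 WT bleomycin points of Irf1, Irf2, Irf5 and Irf7 do not overlap, whereas CB1R KO points overlap WT bleomycin points for all 8 genes.

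Among the factors that act downstream of pathogen sensors, Irf7, the interferon-inducible amplifier of the type I interferon response, changed most. Its control libraries held 16.1, 17.4, 11.4 and 16.0 CPM (replicates 3, 21, 24 and 26). Its WT bleomycin libraries held 34.7, 41.0, 30.9, 31.8 and 34.7 CPM (replicates 4, 2, 5, 4-B2 and 7). Every WT bleomycin library exceeded every control library, and Irf7 rose 2.27-fold, a log2 fold change of 1.18 (SE 0.16, adjusted p = 3.91e-05). Irf5, a factor that links MyD88 to inflammatory cytokines in macrophages, held 43.2, 33.4, 31.2 and 24.9 CPM in the control libraries and 56.1, 52.2, 53.8, 46.0 and 48.7 CPM in the WT bleomycin libraries, in the same order of replicates. Its groups also did not overlap, although control replicate 3 came within a few CPM of the lowest WT bleomycin library, and Irf5 rose 1.55-fold (log2 0.63, SE 0.13, adjusted p = 0.00102). Irf3, the constitutively expressed factor activated by TBK1, held 32.2, 28.7, 30.9 and 38.5 CPM in control and 24.7, 27.3, 30.6, 25.0 and 26.9 CPM in WT bleomycin libraries. WT bleomycin replicate 5 lay inside the control range, and Irf3 fell by 0.28 on the log2 scale (SE 0.09, adjusted p = 0.0198). Without control replicate 26, the highest of its group, the Irf3 difference was -0.19 with an adjusted p of 0.0773.

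Unlike Irf7, which is interferon-inducible too, Irf1 and Irf2 fell and Irf9 did not pass the test. Irf1, which interferon gamma induces, held 139, 125, 135 and 132 CPM in control and 114, 110, 98.3, 90.2 and 88.9 CPM in WT bleomycin libraries. The groups did not overlap, and Irf1 fell by 0.40 on the log2 scale (SE 0.08, adjusted p = 0.000969). Irf2, its antagonist at shared sites, held 89.2, 80.2, 95.7 and 92.3 CPM in control and 75.2, 72.9, 63.0, 61.5 and 68.9 CPM in WT bleomycin libraries. Again no WT bleomycin library reached the control range, and Irf2 fell by 0.39 (SE 0.08, adjusted p = 0.000989). Irf2 was the one member whose call in this comparison was lost on the TPM scale, where limma on log2(TPM + 1) gave -0.27 with an adjusted p of 0.0787. Irf9, the DNA-binding subunit of ISGF3, held 55.3 to 59.2 CPM in control and 56.8 to 74.3 CPM in WT bleomycin libraries. Of the WT bleomycin libraries, 3 lay above all controls, and the difference of 0.15 (SE 0.09, adjusted p = 0.161) did not pass the test.

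The lineage factors Irf4 and Irf8 did not pass the test in this comparison. Irf8, required for type 1 conventional dendritic cells and for monocyte development, held 104, 72.6, 81.4 and 68.6 CPM in control and 103, 92.7, 95.4, 84.5 and 91.3 CPM in WT bleomycin libraries. Control replicate 3 was the highest of all 9 libraries, while the other 3 controls lay below every WT bleomycin library. The log2 difference was 0.19 (SE 0.12, adjusted p = 0.197) with all libraries, and it was 0.33 (adjusted p = 0.0198) without control replicate 3, so this 1 library decided the call. Irf4, known for plasma cell formation and for alternative activation of macrophages, held 17.4, 15.9, 11.5 and 9.21 CPM in control and 19.3, 14.5, 11.1, 10.2 and 14.1 CPM in WT bleomycin libraries. These ranges covered nearly the same span, and the difference was 0.04 with an approximate 95% interval from -0.35 to 0.42. The B cell marker sum was 455 CPM in control replicate 3 and 190 to 246 CPM in the other controls. That library also had the highest neutrophil (588 CPM), monocyte (425 CPM) and T and NK cell (117 CPM) sums of the controls. Its type II cell sum, 18635 CPM, was the lowest of them. The part of cell make-up in the Irf4 and Irf8 values was not tested.

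The libraries labelled CB1R KO were then compared with WT bleomycin. None of the 8 members passed the adjusted threshold by edgeR or by DESeq2, where 0.979% of all genes did by edgeR. An unadjusted p under 0.05 was reached by Irf1 and Irf7 in the edgeR test, as by 17% of all genes. For no member were the groups apart, against 5.6% of all genes. The median log2 fold change was 0.08 over the members and 0.00 over all genes.

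Irf7 held 33.3, 19.1, 32.6 and 24.9 CPM in CB1R KO replicates 8, 9, 10 and 11. Replicates 9 and 11 lay below every WT bleomycin library and the other 2 lay among them, and the log2 difference was -0.34 (SE 0.16, edgeR adjusted p = 0.287, interval -0.64 to -0.03). Without replicate 9 it was -0.20. The 6 adipocyte markers summed to 198 and 213 CPM in CB1R KO replicates 9 and 11, and to 49.3 and 84.1 CPM in replicates 8 and 10. WT bleomycin libraries had adipocyte sums of 29.5 to 103 CPM. The part of tissue content in the Irf7 difference was not tested. Irf1 held 129, 104.7, 117 and 113 CPM, of which replicates 8 and 10 lay above every WT bleomycin library, and differed by 0.21 (SE 0.08, edgeR adjusted p = 0.215, interval 0.05 to 0.37). Irf5 held 45.4, 38.7, 51.7 and 45.4 CPM, with 3 of 4 libraries below the WT bleomycin range, and differed by -0.18 (interval -0.43 to 0.07), or by -0.11 without replicate 9. Irf2 held 75.3, 81.6, 77.4 and 66.6 CPM, with 3 libraries above that range, and differed by 0.14 (interval -0.02 to 0.29).

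Of the other 4 members, Irf8 had most of its CB1R KO libraries above the WT bleomycin range, while Irf3, Irf4 and Irf9 had most or all inside it. Irf3 ran from 28.2 to 32.2 CPM, 1 library being above the WT bleomycin range, and differed by 0.16 (interval -0.01 to 0.34). Irf8 held 103, 86.9, 127 and 105.2 CPM, with 3 libraries above every WT bleomycin library, and differed by 0.18 (interval -0.05 to 0.41), or by 0.080 without replicate 10. Irf9 and Irf4 stayed within the WT bleomycin range in all 4 libraries, with differences of 0.03 (interval -0.14 to 0.20) and -0.03 (interval -0.42 to 0.35). The intervals of the 8 members are given because a missed threshold does not show that the genotypes were alike.

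**Figure D3:**
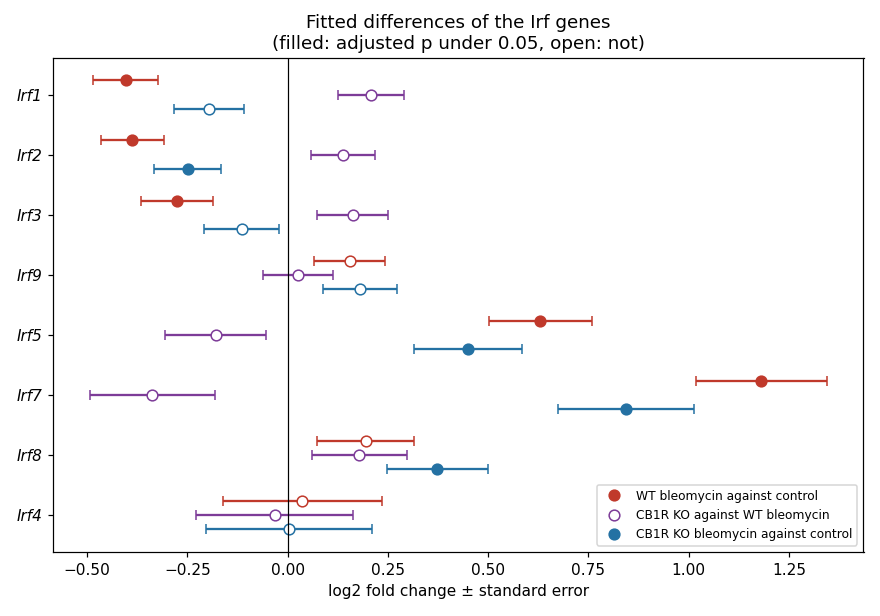
Log2 fold change ± standard error of the 8 Irf genes in the 3 comparisons, with filled points for an adjusted p under 0.05. Irf5 and Irf7 lie to the right and Irf1, Irf2 and Irf3 to the left for WT bleomycin against control, all points for CB1R KO against WT bleomycin are open, and the comparisons share libraries.

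Set against the same vehicle controls, CB1R KO bleomycin lungs gave calls for 4 members, where 35.4% of all genes were called. Irf7, Irf5 and Irf8 rose, against 19% of all genes, and Irf2 fell, against 16.3% of all genes. Irf7 rose 1.79-fold (log2 0.84, SE 0.17, edgeR adjusted p = 0.00153), and no other member had groups that did not overlap, as was the case for 33.5% of all genes. The other log2 changes were 0.45 for Irf5 (edgeR adjusted p = 0.0177), 0.37 for Irf8 (edgeR adjusted p = 0.0324) and -0.25 for Irf2 (edgeR adjusted p = 0.0301). Irf1 (-0.20, edgeR adjusted p = 0.0913), Irf3 (-0.11, adjusted p = 0.364), Irf9 (0.18, adjusted p = 0.139) and Irf4 (0.00, adjusted p = 0.990) did not pass. The Irf7 call held in each of the 25 alternative analyses, and the other 3 calls rested on single libraries. Irf1 passed in 3 alternatives, without CB1R KO replicate 8 (-0.25, edgeR adjusted p = 0.0457), with a term for label style (-0.24, edgeR adjusted p = 0.0344) and by DESeq2 on 2 groups (-0.20, adjusted p = 0.0477). Leaving out control replicate 24 left 2 calls, control replicate 26 left 1, CB1R KO replicate 10 left 1 and CB1R KO replicate 11 left 2. The call of Irf5 was lost without control replicate 26 (0.33, adjusted p = 0.0502) or CB1R KO replicate 10 (0.39, adjusted p = 0.0542). That of Irf2 was lost without control replicate 3, 24 or 26 or CB1R KO replicate 8, 10 or 11 (adjusted p = 0.0544 to 0.107), and that of Irf8 without control replicate 21, 24 or 26 or CB1R KO replicate 10 or 11 (adjusted p = 0.0553 to 0.105).

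The spread of single libraries around their group mean differed between members. In controls the coefficient of variation of CPM was 2.86% for Irf9, 4.56% for Irf1 and 7.45% for Irf2, and 19.1% for Irf8, 22.9% for Irf5 and 28.2% for Irf4. Some libraries deviated across several members at once. CB1R KO replicate 9 was the lowest of its group for 7 of 8 members, by 0.48 on the log2 scale for Irf7, and the highest for Irf2. It also had the lowest sum of the 9 markers of monocyte-derived and interstitial macrophages in its group, 2718 CPM, and the highest type II cell sum, 21275 CPM. CB1R KO replicate 10, above its group mean for 7 of 8 members, had the highest macrophage sum of its group, 4168 CPM, and the lowest type II cell sum, 13482 CPM. Other libraries did not pair this way. WT bleomycin replicate 4-B2 lay below its group mean for all 8 members, while its macrophage sum, 4397 CPM, was the highest of its group. WT bleomycin replicate 4, the highest of its group for 5 members, had a macrophage sum of 3882 CPM. CB1R KO replicates 8 and 11 had macrophage sums of 3524 and 3595 CPM, with Irf7 at 33.3 and 24.9 CPM. Control replicate 3 was the highest control for Irf1, Irf4, Irf5 and Irf8. The part of these markers in the spread of the members was not tested.

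**Figure D4:**
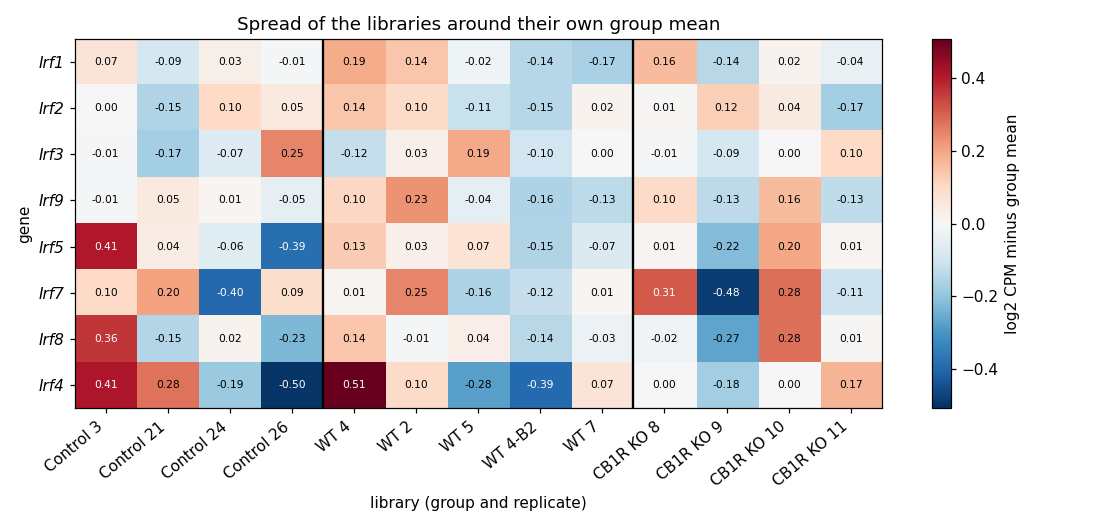
Log2 CPM of each Irf gene minus its group mean, one column per library, red for above and blue for below the mean. CB1R KO replicate 9 is blue for every gene but Irf2, WT bleomycin replicate 4-B2 is blue throughout, and control replicate 3 is red for Irf4, Irf5 and Irf8.

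Of the 28 pairs of members, Irf5 and Irf8 deviated most alike, with a Pearson correlation of 0.91 between their deviations from group means over the 13 libraries. Irf1 and Irf9 followed at 0.78, and Irf4 and Irf5 at 0.75. These values are descriptions over libraries that share their tissue and normalization.

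In bulk tissue fewer cells of a type and less RNA per cell cannot be told apart, so marker sums are given beside the members. Counts of markers that rose or fell in WT bleomycin stand beside 25% of all genes higher and 23.9% lower. The 9 markers of monocyte-derived and interstitial macrophages all rose with bleomycin in WT and in CB1R KO lungs. Their sums were 716 to 858 CPM in control, 3874 to 4397 CPM in WT bleomycin and 2718 to 4168 CPM in CB1R KO bleomycin libraries. They moved with Irf5 and Irf7, as did the fibroblast sum, at 1455 to 1815, 6167 to 9223 and 4370 to 7155 CPM, with 4 of 6 markers higher in WT bleomycin. The 5 markers of type 2 conventional dendritic cells summed to 252 to 333, 485 to 599 and 477 to 573 CPM in these groups, and 4 of 5 rose in both comparisons with control. Plasmacytoid dendritic cells, which are known for high Irf7, had sums of 278 to 338, 300.2 to 333 and 300.4 to 346 CPM. In WT bleomycin 1 of their 6 markers rose and 3 fell, with a median log2 fold change of -0.38. The marker that rose, Bst2, is also among the ISGF3 targets below, with means of 69.1 CPM in control and 88.8 CPM in WT bleomycin. Type 1 conventional dendritic cells, which need Irf8, had sums of 421 to 458, 337 to 393 and 395 to 448 CPM, with 2 of 6 markers higher and 2 lower in WT bleomycin. The 6 monocyte markers summed to 224 to 425, 282 to 344 and 257 to 293 CPM, with 2 higher and 2 lower in WT bleomycin. Alveolar macrophages had sums of 651 to 1889, 709 to 1132 and 645 to 1167 CPM, with 1 of 8 markers higher and 2 lower.

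Several other marker sums were lower in WT bleomycin, as Irf1, Irf2 and Irf3 were. The type II cell sum was 18635 to 22100 CPM in control, 11602 to 13253 CPM in WT bleomycin and 13482 to 21275 CPM in CB1R KO bleomycin libraries. In WT bleomycin 5 of 6 markers were lower. In CB1R KO 3 were higher than in WT bleomycin, where 0.359% of all genes were. The endothelial sum was 3601 to 4387 CPM in control, 2321 to 2728 CPM in WT bleomycin and 2652 to 3089 CPM in CB1R KO bleomycin libraries. In WT bleomycin 6 of 6 markers fell, and 1 was higher in CB1R KO than in WT bleomycin. The neutrophil sum was 127 to 588, 75.9 to 135 and 92.5 to 186 CPM, with 4 of 5 tested markers lower. The T and NK cell sum was 78.9 to 117, 43.2 to 64.0 and 67.3 to 72.8 CPM. Of its 8 markers, 4 were lower in WT bleomycin and 1 was higher in CB1R KO than in WT bleomycin. The B cell sum was 190 to 455, 72.1 to 199 and 133 to 180 CPM, with 5 of 6 markers lower, while the plasma cell sum was 274 to 298, 417 to 712 and 420 to 568 CPM, with 2 of 5 tested markers higher and 1 lower. Irf4, which both of these lineages use, differed by 0.04 in WT bleomycin. The heart muscle sum also differed, at 654 to 1658 CPM in control, 109 to 432 CPM in WT bleomycin and 441 to 788 CPM in CB1R KO bleomycin libraries. The adipocyte sum was 51.6 to 202, 29.5 to 103 and 49.3 to 213 CPM in these groups, with 2 of 5 tested markers lower in WT bleomycin. No marker of these lists was at 0 in all libraries of a group, and the part of cell make-up in the members' values was not tested.

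Some members share exon sequence with a neighbouring gene, which can draw reads from one to the other. In the GENCODE M21 annotation (build GRCm38), Irf5 shared 251 exonic bases with Tnpo3 and Irf7 shared 45 with Phrf1, both on the opposite strand. Neither neighbour passed the test, with log2 fold changes of 0.05 (SE 0.05) for Tnpo3 and -0.04 (SE 0.08) for Phrf1 in WT lungs. Irf9 shared 123 bases with Rnf31 on the same strand. Rnf31, a ubiquitin ligase subunit, fell by 0.29 in WT bleomycin lungs (SE 0.07, edgeR adjusted p = 0.00251) while the Irf9 difference was 0.15, and how reads of the shared stretch were divided between the genes cannot be told from the counts. Irf1 shared 100 bases with Gm17334 on the opposite strand, and Irf2, Irf3, Irf4 and Irf8 shared none with a protein-coding gene.

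The genes that act before and after the IRFs were taken from 10 lists with 100 genes, of which 87 were tested. In WT bleomycin against control 39 rose, where 25% of all genes did, and 7 fell, where 23.9% did. Of the listed genes tested 52.9% were called, beside 48.9% of all genes. CB1R KO bleomycin against control gave 39 that rose, where 19% of all genes did, and 1 that fell, where 16.3% did. Together they were 46.0% of the listed genes tested, beside 35.4% of all genes. These shares of all genes also apply to the counts of each list below. Between the bleomycin groups 1 gene passed, Socs3, beside 0.979% of all genes.

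Of 11 tested sensors of nucleic acid and lipopolysaccharide, 8 rose and none fell by the edgeR test in WT bleomycin lungs, with a list median of 0.58, and 8 rose and none fell in CB1R KO bleomycin lungs, with a median of 0.46. Sting1, the adaptor of cytosolic DNA sensing, rose by 1.54 in WT and 1.05 in CB1R KO lungs (SE 0.16 and 0.17), Zbp1, a sensor of Z-form nucleic acid, by 1.29 and 0.75, and Tlr8 by 1.16 and 1.19. Of 12 adaptors and kinases, 5 rose and 1 fell in WT bleomycin lungs. Myd88 rose by 0.61 (SE 0.09), Ikbke, the inducible kinase of IRF3 and IRF7, by 0.64 (SE 0.12) and Irak4 by 0.44 (SE 0.09), whereas Mavs, the adaptor of RNA sensing, fell by 0.30 (SE 0.07). The log2 changes of these genes in CB1R KO bleomycin lungs, in the same order, were 0.34, 0.57, 0.28 and -0.20, the last with an edgeR adjusted p of 0.0535.

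Interferon genes themselves were scarcely detected. Of 10 listed, 5 were in the tables and none passed the filter. Ifnb1 and Ifna2 had at most 1 and 2 estimated counts in any library, Ifnk at most 2, Ifnz at most 10.9 and Ifng between 1 and 22.9. The Ifng means were 0.360 CPM in control, 0.191 CPM in WT bleomycin and 0.347 CPM in CB1R KO bleomycin lungs. A change in these genes was not detectable at this depth. Of 6 interferon receptor genes, Ifngr2 (0.57, SE 0.07) and Ifnar1 (0.21, SE 0.08) rose in WT bleomycin lungs and none fell, and in CB1R KO bleomycin lungs Ifngr2 rose by 0.47 while Ifnar1 had 0.20 with an edgeR adjusted p of 0.0667. Of 5 JAK and STAT genes, Jak2, a kinase of the interferon gamma receptor, rose (0.31, SE 0.06), and the other 4 did not pass.

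Of 10 IRF partners and co-regulators, 3 rose and 3 fell in WT bleomycin lungs. Spi1, which encodes PU.1 (0.69, SE 0.12), Batf (0.76, SE 0.16) and Batf3 (2.00, SE 0.25) rose. Spib (-0.72, SE 0.28), Ikzf3 (-0.97, SE 0.25) and the IRF2-binding co-repressor Irf2bp1 (-0.31, SE 0.08) fell. Batf3 was low in control lungs at 1.41 ± 0.404 CPM. With CB1R KO, Spi1 (0.47), Batf (0.48) and Batf3 (1.48) rose and none of the 3 others passed. Of 7 feedback genes, 4 rose and none fell by the edgeR test in each comparison with control, with Socs3, an inhibitor of JAK signalling, at 2.63 (SE 0.20), Ptpn2 at 0.60 (SE 0.08) and Usp18 at 0.54 (SE 0.10) in WT bleomycin lungs. Socs3 held 43.9 ± 7.57 CPM in control (SD, n = 4), 271 ± 74.7 CPM in WT bleomycin (n = 5) and 132 ± 22.4 CPM in CB1R KO bleomycin lungs (n = 4). It was lower in CB1R KO than in WT bleomycin lungs by 1.04 on the log2 scale (SE 0.18, edgeR adjusted p = 0.0231). No listed gene, Socs3 included, was called without WT bleomycin replicate 5 or 4-B2 or CB1R KO replicate 8, 9 or 11.

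Of 14 tested ISGF3 targets, 10 rose and none fell by the edgeR test in WT bleomycin lungs, with a median of 0.64, and 10 rose in CB1R KO bleomycin lungs, with a median of 0.55. Cxcl10, a chemokine for T cells, rose by 3.60 in WT and 3.18 in CB1R KO lungs (SE 0.28 and 0.29), Isg15, a ubiquitin-like modifier, by 1.75 and 1.53, and the antiviral synthetase Oas1a by 1.53 and 1.32. Of 16 interferon gamma and IRF1 targets, 3 rose, 2 fell and 11 did not pass in WT bleomycin lungs, with a median of 0.02. Cxcl9 (3.19, SE 0.40), Iigp1 (1.02, SE 0.19) and the immunoproteasome subunit Psmb8 (0.29, SE 0.11) rose, and the guanylate-binding proteins Gbp2 (-0.42, SE 0.12) and Gbp7 (-0.67, SE 0.14) fell. Cxcl9 and Cxcl10 were low in control lungs, at 0.857 ± 0.196 and 1.27 ± 0.210 CPM. With CB1R KO, 4 genes of this list rose and 1, Gbp7, fell (-0.45, edgeR adjusted p = 0.0328). Of 6 tested cytokine genes that IRF5 can induce, Il6 (2.36, SE 0.34), Il12b (1.34, SE 0.30) and Tnf (1.24, SE 0.32) rose and Ccl5 (-0.87, SE 0.16) fell in WT bleomycin lungs. In control lungs Il6 (1.37 ± 1.04 CPM), Il12b (0.998 ± 0.377 CPM) and Tnf (1.13 ± 0.240 CPM) were low too. With CB1R KO, Il6 rose by 1.38, Il12b by 1.76 and Tnf by 0.97, and Ccl5 had -0.37 with an edgeR adjusted p of 0.0885.

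**Figure D5:**
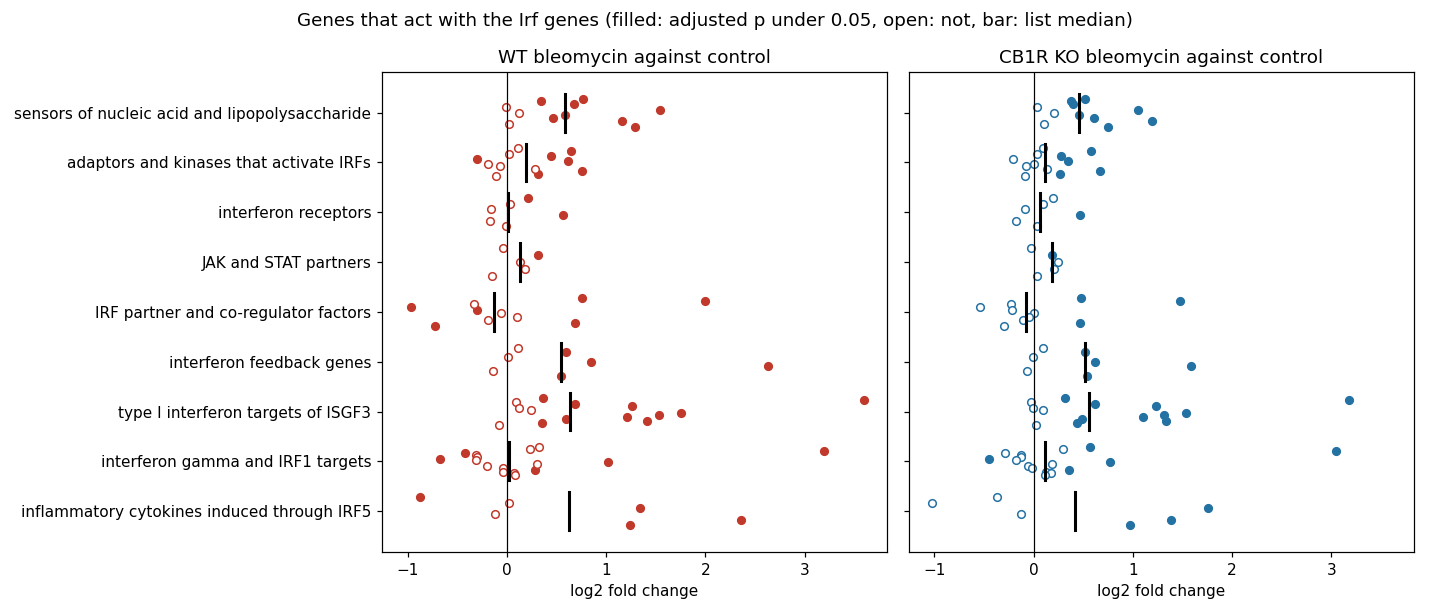
Log2 fold changes of the tested genes in 9 lists of genes that act with the IRFs, for WT bleomycin (left) and CB1R KO bleomycin (right) against the same controls, with filled points for an adjusted p under 0.05 and a bar at the list median. Medians lie at 0.58 and 0.46 for sensors and at 0.64 and 0.55 for ISGF3 targets, and at 0.02 and 0.12 for interferon gamma and IRF1 targets.

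The 3 genes most like each member were named by their Pearson correlation of log2 CPM over the 13 libraries. Irf5 ran closest to Ccr2, the receptor of inflammatory monocytes (r = 0.97, and 0.92 for deviations from group means), followed by Tns4 and Arsi (r = 0.97 each). The 6 monocyte markers, Ccr2 among them, did not move together, with 2 higher and 2 lower in WT bleomycin than in control. Irf7 ran with Gm2a, Mdm2 and Dok2 (r = 0.95 to 0.96, and 0.71 to 0.80 for deviations). Irf8 ran with Smad3, with Cx3cr1, a receptor of monocytes and interstitial macrophages, and with Pvrig (r = 0.90 to 0.91, and 0.84 to 0.92 for deviations). Irf1 ran with Klra4, a lectin-like receptor gene of NK cells (r = 0.96), with Zfp983 and with Ptgr2, and Irf2 with Pcf11, Ptar1 and Clec2d (r = 0.96 to 0.97). Irf3 had the lowest values, with Rassf10, Glt28d2 and Plekhg5 (r = 0.85 to 0.87). Irf9 ran with Ggta1 and with Parp14 and Tlr3, both known as interferon-inducible genes (r = 0.89 to 0.90), and Irf4 with Kmo, with Tnfrsf13b, a receptor of B cells and plasma cells, and with Chst10 (r = 0.86 to 0.93). For Irf4 the deviations gave values of 0.88 to 0.95, at or above those over all libraries. These are the highest of the values over all genes tested per member, with no test, and the libraries share normalization and tissue.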

How the data were processed

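RNA from the lower right lung lobe of 13 mice was enriched with oligo(dT), prepared with NEBNext Ultra II and sequenced as paired reads on a HiSeq by the authors. Per the labels and the study's methods, kallisto (no version given) was run on the mouse reference of Ensembl (GRCm39), and the authors deposited estimated counts and TPM values summed over protein-coding transcripts by gene symbol. Strand was not stated. Of the deposited estimated counts, 70.5% were not whole, and they were rounded here. The deposited TPM table had 1 column that matched no sample, which was not used. One further gene with an Irf symbol is not reported here.

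Genes were filtered with filterByExpr and normalized with TMM, and 3 groups (4, 5 and 4 libraries) were fitted together with edgeR 4.0.16 (R 4.3.3). The quasi-likelihood test was adjusted by Benjamini-Hochberg over 15315 genes at 0.05, and standard errors were the log2 fold change over the root of F. CPM used TMM library sizes, and log2 CPM a prior count of 2. Alternatives were DESeq2 1.42.0, limma 3.58.1 on log2(TPM + 1) and log2(TPM + 0.1), other filters and normalizations, fits of 2 groups, a term for the style of the sample labels, libraries with lower-case labels only, and each library left out. After seeing the data, a fit was added in which the deep CB1R KO library (replicate 11) was thinned. The fit was tested on simulated counts. Plots were drawn with matplotlib 3.10.9 and tables made with pandas 2.3.3 in Python 3.11.15.

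The members and gene lists were chosen with earlier results of these data known. Genes named were the members, Cnr1, up to 3 called genes per direction and list for WT bleomycin against control, every listed gene called between the bleomycin groups, and the 3 genes most like each member. Ifna1, Ifna4, Ifne, Ifnl2, Ifnl3, Mx1, Mx2 and Trac of the lists were not analysed here. Approximate 95% intervals were the log2 fold change with its standard error on a normal scale.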

Additional observations from a re-analysis of the deposited data

How the results depend on the processing

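Calls for members in WT bleomycin against control numbered 4 to 6 in 25 alternatives against 5 as reported, and in CB1R KO against WT bleomycin 0 in each. Irf1, Irf5 and Irf7 in WT bleomycin against control and Irf7 in CB1R KO bleomycin against control kept direction and call in every alternative run. With lower-case labels only, the WT bleomycin changes were -0.30 for Irf1, -0.32 for Irf2, -0.15 for Irf3 (adjusted p = 0.251, edgeR), 0.59 for Irf5 and 1.25 for Irf7. In CB1R KO bleomycin against control that setting called 1 member against 4, leaving out single libraries 1 to 4, and DESeq2 on 2 groups 5.

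For CB1R KO against WT bleomycin, all genes called numbered 150 as reported, 646 by DESeq2 on all libraries, 655 by DESeq2 on 2 groups, 88 by edgeR on 2 groups, 93 by limma on log2(TPM + 0.1), 41 with the label-style term, 6 with lower-case labels only, and 1 (without CB1R KO replicate 9) to 653 (without CB1R KO replicate 10) when 1 library was left out. Listed pathway genes called numbered 1 as reported, 3 and 4 by DESeq2 (all libraries and 2 groups), 2 by edgeR on 2 groups, 0 with the label-style term, 0 with lower-case labels only, and 0 to 3 with 1 library left out. In CB1R KO bleomycin against control, lower-case labels only gave 24 pathway genes against 40.

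Irf4 changed sign around values near 0. In WT bleomycin against control it ran from -0.11 to 0.19 with 1 library left out. In CB1R KO against WT bleomycin it was 0.13 and 0.15 by limma on log2(TPM + 1) and log2(TPM + 0.1), and -0.12 to 0.12 with 1 library left out. In CB1R KO bleomycin against control it was -0.016 with upper-quartile normalization, -0.00022 by DESeq2 on all libraries, -0.083 with the label-style term, -0.14 with lower-case labels only, -0.029 with replicate 11 thinned, and -0.14 to 0.15 with 1 library left out. Irf9 in CB1R KO against WT bleomycin was -0.040 with the label-style term, -0.068 with lower-case labels only, and -0.028 to 0.088 with 1 library left out. The cause of these changes was not tested.

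All CB1R KO libraries had lower-case labels, so label style and genotype overlap in part. No paired analysis was possible because the groups shared fewer than 2 replicate numbers. Interferon genes were too low in count to be tested.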

Other observations

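Of the 24 sets of libraries formed by 8 members in 3 groups, none held a value whose gap to its nearest neighbour passed Dixon's 95% critical value, where chance would give 1.2. The closest was Irf7 in control replicate 24, whose gap was 0.812 of the group's range against a critical value of 0.829. By TPM the Irf5 to Irf3 ratio was 0.431 to 0.824 in control, 1.124 to 1.40 in WT bleomycin and 0.867 to 1.11 in CB1R KO bleomycin libraries, so no CB1R KO library reached the WT bleomycin range and none fell to the control range. This ratio was described after its values were seen and was not tested, and neither gene differed between the bleomycin groups by edgeR's quasi-likelihood test (adjusted p = 0.496 for Irf5 and 0.380 for Irf3).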
